A study of Schizosaccharomyces pombe with 29 samples.

Results

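The strain named Y1F carries, at its own rpb1 locus, a carboxy-terminal domain (CTD) in which phenylalanine replaces the tyrosine at the start of every heptad. Its 3 libraries (h+ rpb1-CTD-Y1F29::NatMX) were set against 3 libraries of the strain named WT29 (h+ rpb1-CTD-WT29::NatMX), whose heptads are unchanged. The members were taken from the count columns named for those strains, and they are 6 of the 29 samples in the series. Further libraries entered as a check, namely the 3 libraries each of S2A (h+ rpb1-CTD-S2A29::NatMX) and S2A-S7A (h+ rpb1-CTD-(S2A-S7A)29::NatMX), and 3 more WT29 libraries, called control set 2 below. All strains are fission yeast, Schizosaccharomyces pombe, of mating type h+ with 29 heptads in the CTD and the NatMX marker, grown in log phase at 30 °C in the rich medium YES. Each allele is given as 1 strain, so a change elsewhere in that strain and the change of the CTD cannot be told apart. RNA was taken up in hot acid phenol, polyadenylated RNA was made into stranded TruSeq libraries, and paired ends were read on a NovaSeq instrument. Counts per gene do not show the codons of the heptads.

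The CTD is the tail of Rpb1, the biggest of the RNA polymerase II subunits. It repeats a heptad of tyrosine, serine, proline, threonine, serine, proline and serine, and kinases and phosphatases mark these residues as the enzyme starts, elongates and terminates. Tyrosine can carry a phosphate on its hydroxyl group, which phenylalanine lacks. Factors that cap, splice, cleave and polyadenylate RNA bind the CTD according to its marks, and in fission yeast cells with phenylalanine at every heptad start are viable. The comparison describes which transcript levels differ between Y1F, whose heptads lack that hydroxyl group, and WT29.

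Levels below are CPM, counts scaled to the library total within the 6 libraries, in the order of replicates 1, 2 and 3, unless another scale is named. Each log2 fold change is Y1F over WT29 ± SE, with n = 3 libraries a group, from edgeR's quasi-likelihood F test, and p-values were adjusted over all genes tested. A gene "rose" or "fell" when its adjusted p was under 0.05, and was called when it also changed at least 2-fold. Total counts ran from 21 M to 25.6 M, with a median of 23.1 M. Y1F libraries correlated with each other at 0.9966 to 0.9968 over log2 CPM, and WT29 libraries at 0.9909 to 0.9964. WT29 replicate 3 stood farthest from its group, at -15.93 on a principal component that held 9.6% of the variance, against 82% on the component that separated the strains. The 10 most abundant genes took 9.27% to 9.52% of the counts in Y1F and 5.42% to 6.04% in WT29. Nothing in the labels says that libraries of a group came from separate cultures, so p-values measure the spread between these samples only. In bulk RNA a lower level per cell and fewer cells with the transcript cannot be told apart.

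The transcript of the altered gene itself was lower in Y1F than in either WT29 set, but the sets differed. The gene rpb1 (SPBC28F2.12) had 75, 77.5 and 84.2 CPM in Y1F libraries, against 147, 160 and 165 CPM in WT29 libraries. No library of one strain reached the range of the other, and the log2 fold change was -1.0 ± 0.08 (edgeR adjusted p = 2.3e-07), or -2.54 against control set 2. Scaled within 15 libraries, rpb1 averaged 77.2 CPM in Y1F, 53.9 in S2A, 169 in S2A-S7A, 153 in WT29 and 447 in control set 2. It was higher in Y1F than in S2A (0.53 ± 0.09, edgeR adjusted p = 0.00032). Of the 11 subunit genes of the polymerase, rpb1 included, 0 rose and 7 fell, with a median of -0.33, where 23.6% of all genes tested rose and 27.6% fell. Among the falls were rpb8 at -0.49 and rpb3 at -0.46. The gene rpb4, which encodes a subunit that can leave the enzyme, had 46.1, 52.7 and 43.3 CPM in Y1F and 33.4, 38.1 and 47.3 CPM in WT29, and did not pass (0.26, edgeR adjusted p = 0.1). It rose without WT29 replicate 3 (0.41) and against control set 2 (0.83).

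Of 6006 genes tested, 281 were called higher in Y1F (4.68%) and 307 lower (5.11%). Changes of at least 4-fold were found for 67 of the higher and 68 of the lower genes, and changes of at least 8-fold for 14 and 26. The called genes were weakly expressed: their median average level was 2.63 log2 CPM among higher and 2.45 among lower genes, against 5.34 over all genes tested. By class, the higher genes were 152 coding genes (54.1%), 117 long non-coding RNAs (41.6%), 6 snoRNAs (2.14%), 3 pseudogenes and 3 unmatched IDs. The lower genes were 162 coding genes (52.8%), 139 long non-coding RNAs (45.3%), 5 rRNA entries (1.63%) and 1 pseudogene. Over all genes tested, 82.4% were coding genes, 16.1% long non-coding RNAs, 0.599% snoRNAs and 0.216% rRNA entries. Intron-containing genes made up 32 of the 152 higher coding genes (21.1%) and 48 of the 162 lower ones (29.6%), against 49.1% of the coding genes tested. Against control set 2 the counts were 435 higher (7.18%) and 426 lower (7.03%) of 6057. There, 178 of the 281 higher genes (63.3%) and 125 of the 307 lower genes (40.7%) were called the same way, while 8 and 15 were called the opposite way. Where a named gene had the other direction with control set 2, or a log2 value nearer 0 by more than 1.5 times, that value stands beside it.

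Among the coding genes with the greatest rises, ddr48 (SPAC23H3.15c), an ortholog of a DNA damage-responsive protein, had 41.9, 47.1 and 42.2 CPM in Y1F and 1.83, 2.07 and 2.6 CPM in WT29. Its libraries were far apart, at a log2 fold change of 4.33 ± 0.15 (edgeR adjusted p = 1.7e-10). The But2-family gene SPAC27D7.09c had 187, 181 and 195 CPM in Y1F and 12.8, 11.4 and 5.97 CPM in WT29 (4.22 ± 0.18). The gene mug108 (SPAC29A4.12c), of the class first noted for its induction in meiosis, had 13.4, 14 and 15.6 CPM in Y1F and 0.869, 0.893 and 1.26 CPM in WT29 (3.83 ± 0.19). In each of these genes the lowest Y1F library lay far above the highest WT29 library. A pair of short-chain dehydrogenase genes of chromosome III, osr1 (SPCC663.06c) and SPCC663.08c, rose together. Levels of osr1 were 64.2, 58.4 and 54 CPM in Y1F against 8.6, 8.89 and 7.63 CPM in WT29 (2.81 ± 0.12), and SPCC663.08c had 43.9, 43.1 and 35.3 CPM in Y1F against 8.55, 9.82 and 6.56 CPM in WT29 (2.29 ± 0.15). The predicted glucosidase gene SPAC4H3.03c had 18, 17.7 and 17.3 CPM in Y1F and 2.88, 3.08 and 3.14 CPM in WT29 (2.54 ± 0.14). The extracellular 5'-nucleotidase gene SPAC1039.02 had 887, 654 and 693 CPM in Y1F and 159, 114 and 71.3 CPM in WT29 (2.70 ± 0.22). Its rise was smaller against control set 2 (0.55). The gene lsd90 (SPBC16E9.16c), of unknown function, had 83.2, 103 and 99.7 CPM in Y1F and 12.9, 13 and 12.2 CPM in WT29 (2.91).

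**Figure D1:**
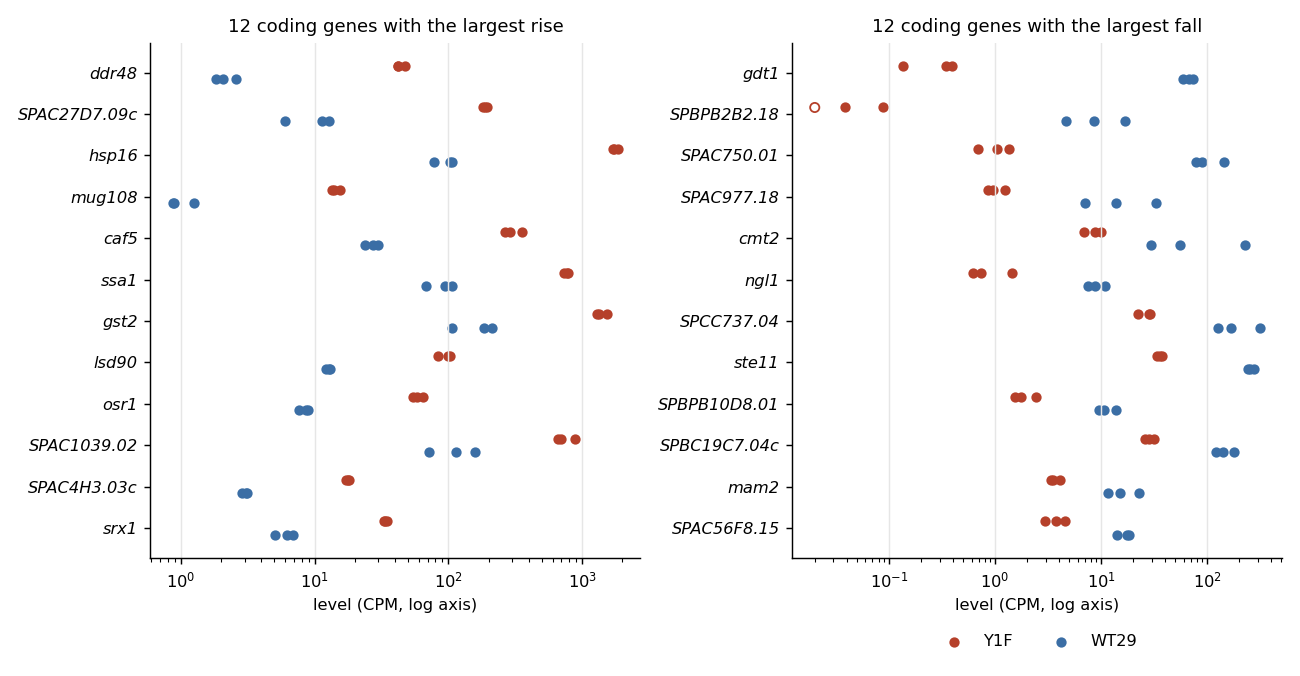
Levels in CPM, on a log axis, of the 12 coding genes with the greatest rise and the 12 with the greatest fall by the naming rule; each point is 1 library, Y1F beside WT29. In all 24 genes the Y1F libraries lie on 1 side of the WT29 libraries, which the rule required; the open circle marks a library with 0 counts.

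The coding genes with the greatest falls included several whose WT29 libraries were themselves spread out. The methyltransferase gene cmt2 (SPBPB21E7.04c) had 6.95, 8.72 and 9.99 CPM in Y1F, against 29.4, 55.3 and 229 CPM in WT29 (-3.61 ± 0.57, or -2.31 without WT29 replicate 3), and it was higher in Y1F than in control set 2 (2.94). SPCC737.04, of an uncharacterised family, had 22.4, 28.1 and 28.8 CPM in Y1F and 126, 168 and 315 CPM in WT29 (-2.94 ± 0.26), and it too turned round with control set 2 (3.27). So did SPBC19C7.04c, with 28, 25.9 and 31.5 CPM in Y1F and 120, 141 and 178 CPM in WT29 (-2.36 ± 0.13, and 1.10 with control set 2). In each of these WT29 replicate 3 was the highest library. Falls that held against both control sets were those of ngl1 (SPBC1709.14), the gene of a peptide N-glycanase, with 1.46, 0.617 and 0.745 CPM in Y1F and 10.9, 7.47 and 8.71 CPM in WT29 (-3.27 ± 0.27, and -3.38 with control set 2), and of SPAC56F8.15, with 2.97, 3.74 and 4.56 CPM in Y1F and 14.1, 18.4 and 17.5 CPM in WT29 (-2.15 ± 0.18, and -2.06 with control set 2). The predicted cysteine transporter gene SPBPB10D8.01 had 2.42, 1.54 and 1.75 CPM in Y1F and 13.8, 10.6 and 9.52 CPM in WT29 (-2.57 ± 0.21, and -4.78 with control set 2). Genes of flocculation moved in both directions. Their list holds genes of flocculins, cell surface proteins through which yeast cells clump, and also the transcription factor gene mbx2, which fell (-0.77). Of 11 genes tested (median -0.11), 3 rose (27.3%) and 5 fell (45.5%), against 23.6% and 27.6% of all genes tested. Of 12 tested against control set 2, 1 rose and 9 fell (median -0.65), beside 30.3% and 31.4% of all genes tested there. The flocculin gene pfl7 (SPBC359.04c) had 0.457, 0.579 and 0.789 CPM in Y1F and 5.17, 5.4 and 3.68 CPM in WT29 (-2.95 ± 0.26, and -5.76 with control set 2).

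Chaperone genes rose as a group. Of 21 genes in the list, 17 rose (81%) and 3 fell (14.3%), against 23.6% and 27.6% of all genes tested. Their median log2 fold change was 0.71, against -0.02 over all genes tested. Together they took 4.17% to 4.29% of all counts in Y1F and 2.43% to 2.71% in WT29. Heat shock factor, the regulator of such genes in eukaryotes, binds inverted repeats of the bases GAA, and the letters GAANNTTC, an inverted pair, were searched on both strands in the 250 bases before each annotated transcript start. A match was present for 12 of the 21 chaperone genes (57.1%), against 483 of 5106 coding genes with a window (9.46%), 21 of the 152 genes called higher (13.8%) and 13 of the 162 called lower (8.02%). The windows of 3 chaperone genes that rose are shown with their matches in capitals; they were read from RefSeq's ASM294v3 assembly on the coding strand, run 5' to 3' and end just before the transcript start.
hsp16, chrII:2660993-2661242, minus strand: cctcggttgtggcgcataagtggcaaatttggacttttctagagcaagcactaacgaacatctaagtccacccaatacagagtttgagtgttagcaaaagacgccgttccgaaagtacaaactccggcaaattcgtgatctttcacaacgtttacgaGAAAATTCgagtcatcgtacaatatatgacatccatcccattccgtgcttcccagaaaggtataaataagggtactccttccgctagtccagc
ssa1, chrI:2297965-2298214, minus strand: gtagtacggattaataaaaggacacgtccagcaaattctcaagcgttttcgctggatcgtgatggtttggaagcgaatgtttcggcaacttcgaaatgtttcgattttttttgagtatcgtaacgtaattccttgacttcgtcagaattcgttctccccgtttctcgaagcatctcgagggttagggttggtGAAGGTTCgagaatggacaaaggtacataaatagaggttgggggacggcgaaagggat
psi1, chrIII:2195535-2195784, minus strand: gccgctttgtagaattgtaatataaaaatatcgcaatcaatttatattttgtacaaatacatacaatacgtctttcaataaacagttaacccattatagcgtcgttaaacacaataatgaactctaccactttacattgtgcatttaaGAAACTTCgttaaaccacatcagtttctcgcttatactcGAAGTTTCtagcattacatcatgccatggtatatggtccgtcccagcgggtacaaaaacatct
The matches begin 93 bases before the start in hsp16, 58 in ssa1, and 102 and 63 in psi1, and none overlaps a match of the other motifs searched. A match is a description of the letters and not a bound site.

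The small heat shock protein gene hsp16 (SPBC3E7.02c) had 1733, 1687 and 1857 CPM in Y1F, against 106, 103 and 77.6 CPM in WT29. This was the greatest rise of the list (4.20 ± 0.12, edgeR adjusted p = 2.4e-11). The cytosolic Hsp70 gene ssa1 (SPAC13G7.02c) had 781, 727 and 775 CPM in Y1F and 106, 94.3 and 68.1 CPM in WT29 (3.09 ± 0.13). The disaggregase gene hsp104 (SPBC16D10.08c) had 357, 332 and 336 CPM in Y1F and 81, 71.3 and 67.4 CPM in WT29 (2.22 ± 0.08). In all 3 genes the lowest Y1F library stood far above the highest WT29 library. The gene hsp9 (SPAP8A3.04c), a small stress protein gene, had 783, 912 and 875 CPM in Y1F and 272, 223 and 242 CPM in WT29 (1.80 ± 0.09). The J-domain co-chaperone gene psi1 (SPCC830.07c) had 212, 205 and 209 CPM in Y1F and 75.3, 68.2 and 68.3 CPM in WT29 (1.56 ± 0.07). The gene hsp90, whose product folds kinases and receptors, had 11943, 11871 and 12318 CPM in Y1F and 5509, 4800 and 4091 CPM in WT29 (1.33 ± 0.11). Its co-chaperone gene sti1 had 528, 632 and 568 CPM in Y1F and 264, 253 and 265 CPM in WT29 (1.14), and wos2, of the p23 family, had 582, 671 and 590 CPM in Y1F and 290, 289 and 327 CPM in WT29 (1.03 ± 0.08). A further co-chaperone gene, cdc37, rose by less (0.34 ± 0.12, edgeR adjusted p = 0.033, but 1.16 with control set 2), and no longer passed without WT29 replicate 1 (0.24) or 2 (0.30) or Y1F replicate 2 (0.25). The gene cns1 did not pass (-0.06, edgeR adjusted p = 0.65), but stood at 0.50 with control set 2.

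The rises were not limited to cytosolic chaperones. The Hsp70 gene of the endoplasmic reticulum, bip1, had 3698, 3657 and 3915 CPM in Y1F and 2136, 2079 and 1917 CPM in WT29 (0.88). The mitochondrial Hsp60 gene mcp60 (SPAC12G12.04) had 3607, 3267 and 3450 CPM in Y1F and 2116, 1959 and 1757 CPM in WT29 (0.82 ± 0.09). Neither gene, nor hsp9 or hsp104, held a GAANNTTC match in its window. The list's 3 falls were small. The ribosome-associated Hsp70 gene sks2 (SPBC1709.05) had 4387, 4331 and 4303 CPM in Y1F and 6474, 5798 and 5406 CPM in WT29 (-0.44 ± 0.09, but 0.25 with control set 2). The mitochondrial Hsp70 gene ssc1 stood at -0.36, and the heat shock factor gene hsf1 at -0.21, with 89.4, 91.5 and 85 CPM in Y1F and 103, 98.6 and 105 CPM in WT29. The fall of ssc1 no longer passed without Y1F replicate 3 (-0.33), and ssc1 was higher than in control set 2 (0.67). That of hsf1 no longer passed without WT29 replicate 2 (-0.23), Y1F replicate 1 (-0.21) or Y1F replicate 3 (-0.18). Against control set 2, where 30.3% of the genes tested rose and 31.4% fell, 20 chaperone genes rose and 1 fell (median 0.98).

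**Figure D2:**
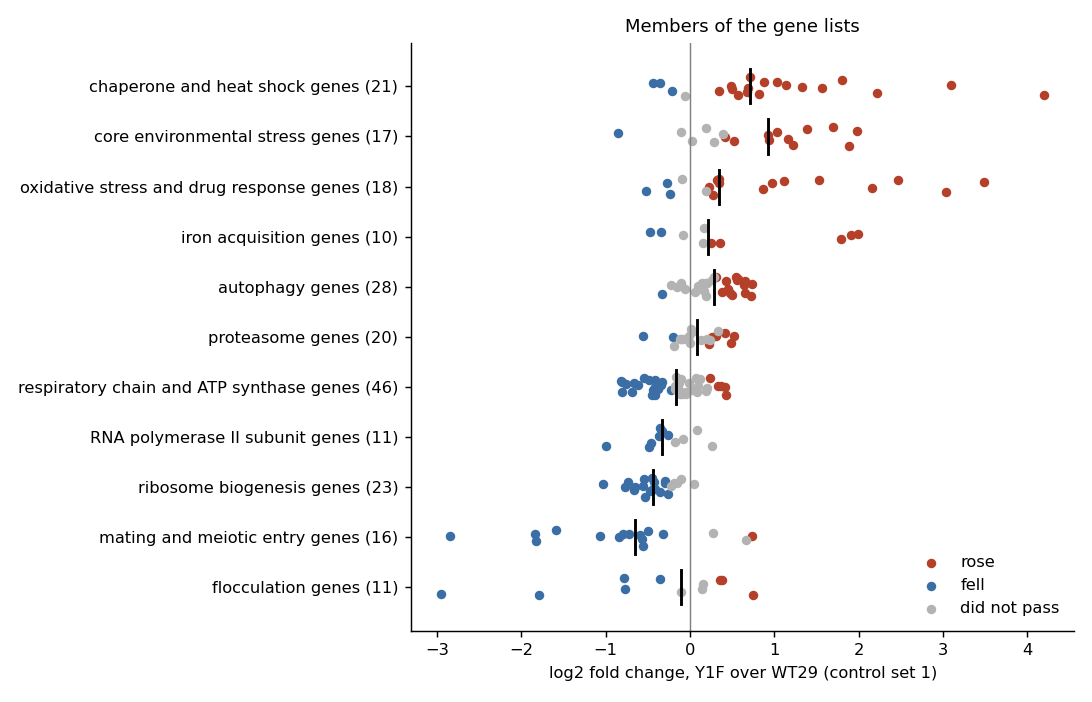
Log2 fold change of Y1F over WT29 for each tested member of the gene lists (points), with the median of each list as a bar. Red points rose, blue points fell and grey points did not pass, and the number tested follows each name. The chaperone and stress lists lie mostly above 0, and the ribosome biogenesis genes and the mating and meiotic entry genes mostly below it.

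The core environmental stress genes are switched on in fission yeast by many stresses through the Sty1 MAP kinase and the Atf1 transcription factor. Of 17 such genes (median 0.93), 11 rose (64.7%) and 1 fell (5.88%) in Y1F, against 23.6% and 27.6% of all genes tested. The core TGACGT of the site that Atf1 binds lay in the window of 7 of the 17 genes (41.2%), against 282 of 5106 coding genes (5.52%), 19 of the 152 called higher (12.5%) and 9 of the 162 called lower (5.56%). Of the genes with a match, gpd1, ntp1, ctt1, rds1 and ish1 rose. The other matches lay before atf1 (0.02) and gut2 (0.39, edgeR adjusted p = 0.07), which did not pass. The genes with the greatest rises of the list, zym1 (1.98), plr1 (1.88) and tps1 (1.69), held no match. The window of gpd1, a glycerol synthesis gene with 2 matches, is shown with both in capitals, the one nearer the start being on the reverse strand; they begin 123 and 74 bases before the start.
gpd1, chrII:4035316-4035565, plus strand: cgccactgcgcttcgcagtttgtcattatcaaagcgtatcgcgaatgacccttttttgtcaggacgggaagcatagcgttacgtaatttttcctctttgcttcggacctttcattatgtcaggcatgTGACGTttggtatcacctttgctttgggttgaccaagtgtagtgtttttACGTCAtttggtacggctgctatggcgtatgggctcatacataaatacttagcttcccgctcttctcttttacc
The gene gpd1 (SPBC215.05) had 1795, 1761 and 1742 CPM in Y1F and 715, 690 and 615 CPM in WT29 (1.39 ± 0.08). The neutral trehalase gene ntp1 (SPBC660.07) had 288, 279 and 292 CPM in Y1F and 154, 143 and 152 CPM in WT29 (0.94 ± 0.07), and the trehalose synthase gene tps1 had 1055, 1020 and 1045 CPM in Y1F and 351, 325 and 292 CPM in WT29 (1.69). Genes for making and for breaking down trehalose, a sugar that protects proteins under stress, thus both had higher transcript levels. The catalase gene ctt1 (SPCC757.07c) had 247, 246 and 226 CPM in Y1F and 155, 123 and 100 CPM in WT29 (0.93 ± 0.12). The nuclear envelope gene ish1 (SPBC365.12c) had 110, 109 and 108 CPM in Y1F and 49.2, 45.2 and 45.8 CPM in WT29 (1.22 ± 0.08). The ferritin-related gene rds1 (SPAC343.12) had 143, 162 and 131 CPM in Y1F and 84.4, 64.6 and 46.5 CPM in WT29 (1.16 ± 0.16, but 0.52 with control set 2). The metallothionein gene zym1 (SPAC22H10.13) had 62.8, 76.5 and 72.4 CPM in Y1F and 19.2, 15.7 and 18.9 CPM in WT29 (1.98 ± 0.11), with no overlap between the strains.

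The transcripts of the stress regulators themselves did not pass against the WT29 libraries of the same set. The gene atf1 had 205, 194 and 189 CPM in Y1F and 211, 182 and 188 CPM in WT29 (0.02, edgeR adjusted p = 0.85), and its partner gene pcr1 stood at -0.11 (edgeR adjusted p = 0.24). With control set 2, atf1 rose (0.73) and pcr1 fell (-0.26). The fall in the list was that of uge1 (SPBC365.14c), the UDP-glucose epimerase gene, with 332, 321 and 339 CPM in Y1F and 595, 591 and 597 CPM in WT29 (-0.85 ± 0.07). It was slightly higher than in control set 2 (0.18). Against control set 2, 12 of the 17 genes rose and 3 fell (median 0.70), beside 30.3% and 31.4% of all genes tested there.

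Genes of the oxidative stress and drug response, many of them targets of the Pap1 transcription factor, also rose more often than they fell. Of 18 (median 0.35), 13 rose (72.2%) and 3 fell (16.7%), against 23.6% and 27.6% of all genes tested. The multidrug transporter gene caf5 had 354, 290 and 266 CPM in Y1F and 29.7, 27.2 and 23.9 CPM in WT29 (3.49 ± 0.12). The glutathione transferase gene gst2 had 1526, 1325 and 1281 CPM in Y1F and 211, 186 and 107 CPM in WT29 (3.03 ± 0.19). The brefeldin A efflux transporter gene bfr1 (SPCC18B5.01c) had 1343, 1123 and 1197 CPM in Y1F and 289, 283 and 245 CPM in WT29 (2.16 ± 0.09, but 1.08 with control set 2). The quinone dehydrogenase gene obr1 (SPAC3C7.14c) had 5754, 5062 and 5160 CPM in Y1F and 2002, 1937 and 1578 CPM in WT29 (1.53 ± 0.10). The sulfiredoxin gene srx1 (SPBC106.02c), whose product repairs peroxiredoxin, had 32.9, 33.6 and 34.7 CPM in Y1F and 6.9, 6.25 and 5.07 CPM in WT29 (2.47 ± 0.13), and the peroxiredoxin gene tpx1 (SPCC576.03c) had 2656, 2474 and 2343 CPM in Y1F and 1459, 1287 and 1074 CPM in WT29 (0.97 ± 0.10). The glutaredoxin gene grx1 (SPAC4F10.20) had 504, 475 and 490 CPM in Y1F and 268, 219 and 195 CPM in WT29 (1.11 ± 0.10). The falls were apt1 at -0.52, pmd1 at -0.27 (-0.01 with control set 2) and gst3 at -0.24. The fall of gst3 no longer passed without WT29 replicate 3 (-0.14) or Y1F replicate 1 (-0.26), 2 (-0.22) or 3 (-0.26), and gst3 was higher than in control set 2 (1.13). Against control set 2, 12 genes rose and 2 fell (median 0.74), beside 30.3% and 31.4% of all genes tested there.

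Iron acquisition genes are kept low in iron-rich cells by the repressor Fep1. Of 12 in the list, shu1 and str3 were not tested because their counts were too low. Of the other 10 (median 0.21), 5 rose (50%) and 2 fell (20%), against 23.6% and 27.6% of all genes tested. The siderophore transporter gene str1 (SPBC4F6.09) had 50.7, 70.6 and 87.6 CPM in Y1F and 20.7, 16.4 and 15.7 CPM in WT29 (1.99 ± 0.17). The iron oxidase gene fio1 (SPAC1F7.08) had 25.5, 29.9 and 33.5 CPM in Y1F and 10.5, 6.53 and 6.74 CPM in WT29 (1.91 ± 0.18). The permease gene fip1 (SPAC1F7.07c), whose product works with the oxidase, had 88.6, 97.4 and 113 CPM in Y1F and 35.2, 28.3 and 23.1 CPM in WT29 (1.79 ± 0.14). These 3 genes of the cell surface rose without overlap between the strains, by similar amounts against control set 2 (1.92, 2.28 and 1.79). The other changes of the list were small. The genes php4 (0.36, and 0.16 with control set 2) and str2 (0.25) no longer passed without Y1F replicate 3 (0.29 and 0.22), which left 3 rises, and str2 did not pass without WT29 replicate 2 (0.24) or Y1F replicate 1 (0.23). The ferric reductase gene frp1 (-0.47) no longer passed without WT29 replicate 3 (-0.26) or Y1F replicate 1 (-0.47), 2 (-0.49) or 3 (-0.46). With control set 2, str2 stood at -0.71 and frp1 at 0.43. The repressor gene fep1 (SPAC23E2.01) had 111, 104 and 106 CPM in Y1F and 158, 135 and 114 CPM in WT29 (-0.34 ± 0.10).

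Genes of ribosome production fell. Of 138 cytosolic ribosomal protein genes, 0 rose and 105 fell (76.1%), against 23.6% and 27.6% of all genes tested. Their median was -0.32, and 2 were called lower at 2-fold, as were 5.11% of all genes tested. They took 18.8% to 19.4% of all counts in Y1F, against 23.7% to 24.9% in WT29. Leaving out 1 library at a time gave 84 to 120 falls. Against control set 2 the counts were 19 rises and 69 falls (median -0.16), beside 30.3% and 31.4% of all genes tested there. The greatest fall was that of rpl1603 (SPBC2G2.05), with 35, 39.4 and 35.1 CPM in Y1F and 121, 125 and 125 CPM in WT29 (-1.76 ± 0.08). Its paralog rpl1602 (SPAC23A1.11), a near copy among which reads could be split, was far more abundant, with 1011, 986 and 934 CPM in Y1F and 2180, 1923 and 1725 CPM in WT29 (-0.99 ± 0.09, but 0.15 with control set 2). The gene rps001 (SPBC685.06) of the small subunit had 697, 679 and 656 CPM in Y1F and 1607, 1412 and 1256 CPM in WT29 (-1.07 ± 0.09, but 0.18 with control set 2). The letters CAGTCACA of the HomolD box, the usual start element of these genes, lay in 88 of the 138 windows (63.8%), against 134 of 5106 (2.62%).

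Of 23 ribosome biogenesis genes, 0 rose and 18 fell (78.3%), against 23.6% and 27.6% of all genes tested, with a median of -0.44. With control set 2, 5 rose and 12 fell, beside 30.3% and 31.4% of all genes tested there. The fibrillarin gene fib1, whose product methylates ribosomal RNA, had 306, 322 and 312 CPM in Y1F and 675, 652 and 598 CPM in WT29 (-1.03, and -0.50 with control set 2). The gene rrp5 (SPCC1183.07), for a protein bound to the U3 snoRNA, had 197, 208 and 211 CPM in Y1F and 386, 340 and 325 CPM in WT29 (-0.77 ± 0.08, but -0.34 with control set 2). The large subunit gene of RNA polymerase I, nuc1 (SPBC4C3.05c), had 179, 184 and 177 CPM in Y1F and 334, 294 and 272 CPM in WT29 (-0.74 ± 0.08). In these 3 genes every Y1F library lay below every WT29 library.

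The counts of the next lists stand beside 23.6% of all genes tested that rose and 27.6% that fell. Against control set 2 those shares were 30.3% and 31.4%. Respiratory chain and ATP synthase genes fell in 19 of 46 cases (41.3%) and rose in 5 (10.9%), with a median of -0.16. Without Y1F replicate 2, 2 rose, and without Y1F replicate 1, 3 rose. The complex III genes qcr8 (SPAC1782.07) and cyt1 (SPBC29A3.18) were among the falls. The gene qcr8 had 97.5, 114 and 113 CPM in Y1F and 196, 189 and 186 CPM in WT29 (-0.81 ± 0.08), and cyt1 had 341, 401 and 408 CPM in Y1F and 695, 664 and 583 CPM in WT29 (-0.76 ± 0.09). Of 20 proteasome genes, which encode the protease of ubiquitin-tagged proteins, 6 rose (30%) and 2 fell (10%), with a median of 0.08. Against control set 2, 15 rose and 1 fell (median 0.44). Against the WT29 libraries of the same set, 3 rose without Y1F replicate 1, and 1 fell without any of WT29 replicates 1 and 2 and Y1F replicates 1 and 3. Of 28 autophagy genes 14 rose and 1 fell (median 0.29), a fall that was lost without WT29 replicate 2 or Y1F replicate 2, and against control set 2, 12 rose and 3 fell. The greatest rise there was that of the vacuolar lipase gene atg15 (SPAC23C4.16c), with 136, 127 and 125 CPM in Y1F and 83.2, 79.4 and 70.5 CPM in WT29 (0.73 ± 0.08). Of 18 sterol synthesis genes, 6 rose (33.3%) and 2 fell (11.1%), with a median of 0.01, or 6 and 4 against control set 2. The greatest rise was that of erg26 (0.58 ± 0.07, and 0.33 with control set 2), and the greatest fall that of the squalene monooxygenase gene erg1 (SPBC713.12), which had 186, 179 and 180 CPM in Y1F and 372, 385 and 468 CPM in WT29 (-1.17 ± 0.09, and -0.73 with control set 2). Of 4 phosphate genes, 2 rose and 1 fell. The transporter gene pho84 had 649, 571 and 618 CPM in Y1F and 1690, 1635 and 1604 CPM in WT29 (-1.42, and -0.73 with control set 2). The glycerophosphodiester transporter gene tgp1 rose (0.69 ± 0.13), as did the transcription factor gene pho7 (0.32, and 0.06 with control set 2), while the acid phosphatase gene pho1 did not pass (0.05, edgeR adjusted p = 0.61). Of 12 CTD kinase and phosphatase genes, 2 rose (16.7%) and 3 fell (25%), neither share above that of all genes tested. Leaving out 1 library at a time gave 0 rises without Y1F replicate 2, 4 without WT29 replicate 3 and 1 without any other. With control set 2 the counts were 3 and 1. The greatest fall was that of lsg1 (SPCC4B3.08), the gene of a subunit of a CTD kinase, with 8.13, 9.68 and 9.29 CPM in Y1F and 15.3, 14 and 20.3 CPM in WT29 (-0.87 ± 0.16, but -0.02 with control set 2). Of 13 termination and 3' processing genes, 2 rose (15.4%) and 5 fell (38.5%), with a median of -0.17, and 3 rose and 5 fell against control set 2. The cleavage factor gene cft2 (SPBC1709.15c) had 20.2, 20.7 and 19.3 CPM in Y1F and 34.4, 34.2 and 45.2 CPM in WT29 (-0.92 ± 0.12).

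Genes of mating and meiotic entry fell relative to the WT29 libraries of the same set, and the counts depended on the control set. Of 16 genes (median -0.65), 1 rose (6.25%) and 13 fell (81.2%), against 23.6% and 27.6% of all genes tested. With control set 2, by contrast, 4 rose and 6 fell (median 0.03), beside 30.3% and 31.4% of all genes tested there. The master regulator gene ste11, a high-mobility-group transcription factor, had 33.7, 35.7 and 37.6 CPM in Y1F and 253, 242 and 275 CPM in WT29 (-2.85 ± 0.08), but stood at -0.26 with control set 2. The meiosis switch gene mei2 had 41.4, 34.8 and 40.8 CPM in Y1F and 162, 135 and 120 CPM in WT29 (-1.84), and was higher than in control set 2 (0.78). The mating MAP kinase gene spk1 had 30, 28.7 and 31.1 CPM in Y1F and 103, 101 and 115 CPM in WT29 (-1.83, and 0.11 with control set 2). Levels of these genes thus differed between the WT29 sets themselves. Scaled within 15 libraries, ste11 averaged 34.9 CPM in Y1F, 21.8 in S2A, 49.8 in S2A-S7A, 249 in WT29 and 41.8 in control set 2. A low level of ste11 was thus not particular to Y1F. The MADS-box gene map1 (SPAC11E3.06) had 1.83, 3.16 and 2.72 CPM in Y1F and 5.67, 7.71 and 10.1 CPM in WT29 (-1.59 ± 0.24, and 0.39 with control set 2). Both pheromone receptor genes kept their direction with control set 2. The gene mam2 (SPAC11H11.04) had 3.34, 4.13 and 3.55 CPM in Y1F and 11.5, 15.2 and 22.5 CPM in WT29 (-2.15 ± 0.22, and -0.58 with control set 2), and map3 (SPAC3F10.10c) had 14.9, 13.8 and 15.2 CPM in Y1F and 30.6, 31.3 and 37 CPM in WT29 (-1.18 ± 0.12, and -0.78 with control set 2). The only riser was byr2 (SPBC1D7.05), a kinase gene of the pheromone pathway, with 36.6, 32.4 and 33.3 CPM in Y1F and 24.4, 18.9 and 18.6 CPM in WT29 (0.73 ± 0.12, and 0.07 with control set 2); without WT29 replicate 3, 2 genes rose. The letters TTCTTTGTT, the core of the site Ste11 binds, lay in 7 of the 16 windows (43.8%), against 83 of 5106 (1.63%).

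Falls were frequent near chromosome ends. Tested genes were ranked inward from each of the 6 ends by their order in the ASM294v3 annotation. Among the outermost 10 of each end, 32 of 60 were called lower in Y1F (53.3%) and 3 higher (5%), with a median log2 fold change of -1.18. At ranks 11 to 20, 15 of 60 were called lower (25%) and 10 higher (16.7%). Beyond rank 50 of every end the shares were 236 of 5692 lower (4.15%) and 258 higher (4.53%). Over the outermost 20 genes, 47 of 120 were called lower (39.2%), and 44 to 47 when 1 library was left out in turn. Chromosomes I and II held most of these, with 39 of 80 lower and 6 higher (30 and 11 of 71 against control set 2), against 5 lower and 4 higher of 20 at the left end of chromosome III and 3 and 3 of 20 at its right end. Against control set 2, 35 of the 107 end genes tested were called lower and 14 higher. The window of 20 genes was chosen after values were seen. A gene with next to no Y1F counts entered the test through its WT29 counts, which all but fixed a lower call. The shares of lower calls at the ends are thus tied to the filter on low counts. Against control set 2, 50 of the 60 outermost genes were tested, of which 22 were called lower and 3 higher. Subtelomeric genes come in near-identical copies, so reads can be split among copies, and values of single genes there are uncertain.

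**Figure D3:**
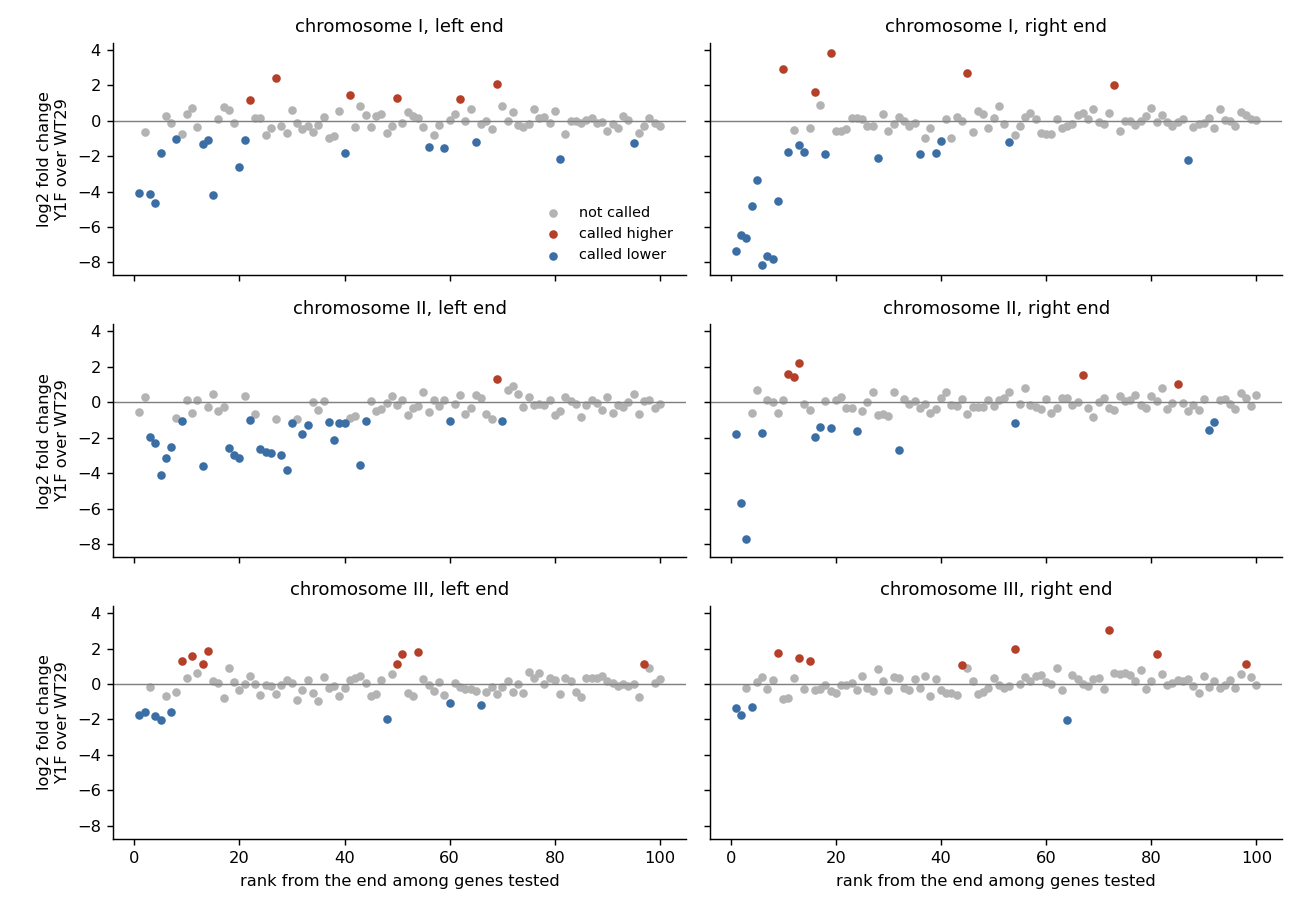
Log2 fold change of Y1F over WT29 for tested genes by rank inward from each of the 6 chromosome ends, with called genes marked. The outermost genes of chromosomes I and II lie mostly below 0; fitted values of genes with very few Y1F counts depend on the prior count of the fit.

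The right end of chromosome I held a run of 9 adjacent tested genes, ranks 1 to 9, that were all called lower. Those with next to no counts in Y1F were tested because of their WT29 counts, so their lower calls were all but fixed. Among the outermost 20 genes of this end, 13 were called lower and 3 higher. Against control set 2 only 13 of them were tested, with 5 lower and 5 higher. The 5 lower ones were ftm4, SPAC750.01, SPAC186.06, gdt1 and SPAC186.04c of the run, whose other genes were not tested there. Summed over the 9 genes and scaled within 15 libraries, the level was 1.12, 2.1 and 1.68 CPM in Y1F, from 25, 56 and 39 counts, against 169, 191 and 261 CPM in WT29, from 3861, 4851 and 5884 counts. The Y1F strain thus had almost no signal across the whole run. The outermost gene, SPAC750.06c, had 0, 0 and 0 counts in Y1F and 26, 23 and 11 in WT29. Next to it, the sub-telomeric membrane protein gene ftm4 (SPAC750.05c) had 3, 0 and 0 counts in Y1F and 130, 74 and 83 in WT29. The aldo-keto reductase gene SPAC750.01 had 15, 35 and 24 counts in Y1F and 1725, 2189 and 3195 in WT29 (-6.63 ± 0.27, and -3.44 with control set 2). Further in, counts of the predicted pyruvate decarboxylase gene pdc102 were 0, 4 and 0 in Y1F and 37, 29 and 54 in WT29. The lactate dehydrogenase gene SPAC186.08c had 0, 3 and 3 counts in Y1F and 17, 19 and 26 in WT29 (-3.33 ± 0.54), but did not pass with both control sets together (-2.68). Control set 2 had 1, 11 and 7 counts of that gene and 6, 14 and 5 of pdc102. The antisense RNA prl61 (SPNCRNA.61) had 2, 4 and 1 counts in Y1F and 346, 583 and 1076 in WT29 (-8.13 ± 0.55). That RNA was scarce in control set 2 as well, at 0.675, 0.31 and 0.318 CPM on the 15-library scale. The PhzF-family gene SPAC186.06 had 1, 0 and 0 counts in Y1F and 81, 112 and 75 in WT29.

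The gene gdt1 (SPAC186.05c) of the same run encodes a Golgi antiporter of calcium and manganese. It had 3, 9 and 9 counts in Y1F and 1472, 1789 and 1324 in WT29 (-7.78 ± 0.21, edgeR adjusted p = 2.4e-11, and -9.20 with control set 2). The innermost gene of the run, SPAC186.04c, had 1, 1 and 2 counts in Y1F and 27, 33 and 40 in WT29 (-4.56 ± 0.45). The next tested gene, the predicted dehydrogenase gene SPAC186.02c, went the other way, with 23, 15 and 19 counts in Y1F and 1, 4 and 2 in WT29 (2.93 ± 0.49). The flocculin gene pfl9, at rank 11, had 72, 67 and 56 counts in Y1F and 191, 214 and 254 in WT29 (-1.79 ± 0.18, and -0.86 with control set 2).

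**Figure D4:**
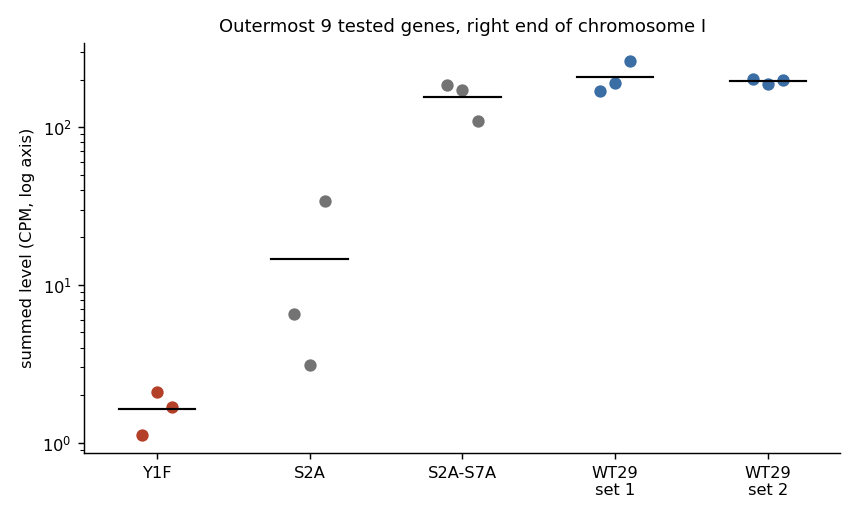
Level summed over the outermost 9 tested genes at the right end of chromosome I, in CPM on the 15-library scale and a log axis; each point is 1 library and each bar a group mean. Y1F libraries lie at 1.12 to 2.1 CPM, S2A libraries at 3.1 to 34 CPM, and the S2A-S7A libraries and both WT29 sets at 109 CPM or more. The genes were chosen as called lower in Y1F. In control set 2 the sum comes mostly from gdt1 (mean 173 CPM), while prl61 averages 0.435 CPM there.

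Other ends showed shorter runs. At the left end of chromosome II, 5 adjacent genes were called lower. Of these, the predicted transcription factor gene grt1 (SPBPB8B6.04c) had 7, 8 and 7 counts in Y1F and 107, 114 and 146 in WT29 (-4.08 ± 0.26, and -4.02 with control set 2). The hexose transporter gene ght7 (SPBC1348.14c) had 7, 7 and 13 counts in Y1F and 34, 40 and 28 in WT29 (-1.94 ± 0.32, and -1.19 with control set 2). At the right end of chromosome II, SPBPB2B2.18 had 0, 1 and 2 counts in Y1F and 103, 213 and 373 in WT29, but control set 2 had only 6, 2 and 11. The RecQ-type helicase gene tlh2 (SPBCPT2R1.08c), which has a near copy, had 8, 12 and 14 counts in Y1F and 57, 42 and 17 in WT29 (-1.80 ± 0.42). At the left end of chromosome I, SPAC977.18 had 21, 22 and 28 counts in Y1F and 155, 343 and 734 in WT29 (-4.15 ± 0.49, -3.38 without WT29 replicate 3, and -1.03 with control set 2). Of 12 heterochromatin and RNA interference genes, 0 rose and 2 fell (16.7%), against 23.6% and 27.6% of all genes tested. However, 4 rose without WT29 replicate 3 and 3 against control set 2. The falls were clr2 (SPAC1B3.17), with 23.4, 20.9 and 21.7 CPM in Y1F and 33.8, 34.8 and 30.4 CPM in WT29 (-0.58 ± 0.11), and the demethylase-like gene epe1 (SPCC622.16c), with 41.8, 41 and 39.3 CPM in Y1F and 54.9, 57.7 and 59 CPM in WT29 (-0.49 ± 0.09). The heterochromatin protein gene swi6 stood at 0.07 (edgeR adjusted p = 0.63) and the histone methyltransferase gene clr4 at 0.15 (edgeR adjusted p = 0.26), or -0.23 with control set 2. The gene swi6 rose without WT29 replicate 3 (0.21) and against control set 2 (0.52).

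Non-coding RNAs moved in both directions. Of 557 annotated antisense RNAs tested (median 0.13), 185 rose (33.2%) and 116 fell (20.8%), against 23.6% and 27.6% of all genes tested. But against control set 2, 150 of 594 rose and 233 fell (median -0.22), beside 30.3% and 31.4% of all genes tested there. Which strand was counted is not given in the sources used here, so reads of an antisense RNA and of its sense gene cannot be told apart. The antisense RNA of the splicing factor gene cwf28, cwf28-antisense-1 (SPNCRNA.1653), had 47.2, 43.1 and 48 CPM in Y1F and 3.38, 3.17 and 2.74 CPM in WT29 (3.89 ± 0.13), while cwf28 itself did not pass (0.09, edgeR adjusted p = 0.61), although it rose against control set 2 (0.71). The antisense RNA ckk2-antisense-1 (SPNCRNA.1271) had 30.8, 29.2 and 30.1 CPM in Y1F and 5.12, 3.49 and 2.83 CPM in WT29 (2.98), and its sense gene did not pass (-0.16, edgeR adjusted p = 0.26), although it fell against control set 2 (-0.44). The predicted non-coding RNA SPNCRNA.472 had 11.4, 9.64 and 10.6 CPM in Y1F and 1.6, 1.42 and 1.48 CPM in WT29 (2.81 ± 0.17). A further rise was that of SPCC1919.05-antisense-1, with 50.3, 48.1 and 48.5 CPM in Y1F and 7.54, 7.95 and 5.07 CPM in WT29 (2.83 ± 0.15). In the opposite direction, cbp6-antisense-1 (SPNCRNA.1378) had 2.47, 2.93 and 2.54 CPM in Y1F and 22.2, 35.5 and 68.6 CPM in WT29 (-3.98), with its sense gene cbp6 higher (0.98 ± 0.10, and 0.64 with control set 2). Its fall turned into a rise against control set 2 (1.03). Over 418 pairs of a tested antisense RNA and its tested sense gene, 43 had both rise, 30 had both fall, 25 had the antisense RNA rise and the gene fall, and 21 had the reverse. Only the antisense RNA rose in 73 pairs and fell in 38. Only the gene rose in 46 and fell in 43, and neither passed in 99. Whether these counts differ from those of unlinked pairs was not tested. The intergenic RNA omt3 (SPNCRNA.130), next but 1 to mei2, had 2.28, 1.5 and 2.15 CPM in Y1F and 29.7, 27.6 and 25.1 CPM in WT29 (-3.80 ± 0.17), but stood at -0.21 with control set 2.

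Small nucleolar RNAs guide the modification of ribosomal RNA and mostly lack a poly(A) tail when mature. Their genes had low counts after selection for poly(A). Of 36 tested (median 0.40), 13 rose (36.1%) and 3 fell (8.33%), against 23.6% and 27.6% of all genes tested. Of the risers, 6 were called higher, as were 4.68% of all genes tested. The gene snoR39b had 5.25, 4.4 and 5.43 CPM in Y1F and 0.732, 1.01 and 0.808 CPM in WT29 (2.54 ± 0.21, edgeR adjusted p = 5.9e-07). The gene snoR54 had 1.42, 1.2 and 1.49 CPM in Y1F and 0.229, 0.325 and 0.269 CPM in WT29 (2.28 ± 0.31, and 1.05 with control set 2). Abundant members did not pass: snoU14 had 35.5, 33 and 38.3 CPM in Y1F and 40.7, 34.2 and 32 CPM in WT29 (-0.00, and 0.33 with control set 2), and snR30 had 34.4, 29.9 and 33.7 CPM in Y1F and 29.4, 25.2 and 26.8 CPM in WT29 (0.27, edgeR adjusted p = 0.052). The rise of snR30 passed without WT29 replicate 1 (0.33) or 3 (0.26) and against control set 2 (1.06). Without Y1F replicate 2 the number of falls was 0, and without WT29 replicate 2 it was 1. Against control set 2, 19 of 39 rose and 8 fell, beside 30.3% and 31.4% of all genes tested there.

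The meiotic transcript ssm4 (SPAC27D7.13c), which growing cells normally remove through the exosome, had 2.28, 2.82 and 3.2 CPM in Y1F and 0.594, 0.568 and 0.853 CPM in WT29 (2.04 ± 0.25). Its rise was similar against control set 2 (2.80). Of 8 such transcripts tested, 2 rose (25%), a share near the 23.6% of all genes tested. None fell (1 fell without WT29 replicate 1), against 27.6% of all genes tested. The other riser was mug4 (SPCC1393.07c), with 11.4, 9.95 and 9.55 CPM in Y1F and 4.34, 5.03 and 5.7 CPM in WT29 (1.03 ± 0.15).

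Y1F was also set directly against the serine-2 alleles, S2A and S2A-S7A. Both lose the phosphate acceptor at serine 2 of the heptad, and S2A-S7A loses that at serine 7 as well. Compared with S2A, 247 of 6085 genes were called higher in Y1F (4.06%) and 351 lower (5.77%). Compared with S2A-S7A, 646 were called higher (10.6%) and 252 lower (4.14%), but 404 were higher without S2A-S7A replicate 1. Most chaperone genes were higher in Y1F than in either: 15 of 21 genes were higher and 2 lower than in S2A (background 18.8% and 23.6%), and 14 were higher and 2 lower than in S2A-S7A (background 33% and 26.2%). On the 15-library scale hsp16 had 1702, 1640 and 1823 CPM in Y1F, 347, 375 and 155 in S2A, 741, 560 and 575 in S2A-S7A and 102, 99.6 and 76.5 in WT29. Y1F over S2A was 2.56 ± 0.26 and over S2A-S7A 1.52 ± 0.25. The stress protein gene hsp9 had 769, 886 and 859 CPM in Y1F, 116, 115 and 51.6 in S2A, 122, 106 and 113 in S2A-S7A and 260, 217 and 239 in WT29, so it was highest in Y1F and below WT29 in both serine-2 alleles (Y1F over S2A 3.16, over S2A-S7A 2.94). The gene ddr48 had 41.2, 45.7 and 41.4 CPM in Y1F, 2.26, 5.04 and 2.41 in S2A, 3.05, 2.38 and 3.47 in S2A-S7A and 1.75, 2.01 and 2.57 in WT29 (Y1F over S2A 3.73, over S2A-S7A 3.89). The metallothionein gene zym1 had 61.7, 74.4 and 71.1 CPM in Y1F, 7.95, 8.14 and 5.18 in S2A, 15.4, 13.2 and 13.5 in S2A-S7A and 18.4, 15.3 and 18.7 in WT29 (3.29 and 2.36). The 16 genes of mating and meiotic entry, most of which fell against WT29, were not lower as a list in these contrasts. In Y1F, 7 were higher and 4 lower than in S2A (median 0.70), and 7 higher and 3 lower than in S2A-S7A (median 0.08), beside the same backgrounds.

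The iron permease gene fip1 had 87, 94.6 and 111 CPM in Y1F, 164, 186 and 52.6 in S2A, 143, 149 and 162 in S2A-S7A and 33.7, 27.4 and 22.8 in WT29. A difference of Y1F from S2A was not detectable (-0.46 ± 0.32, edgeR adjusted p = 0.27), although Y1F was lower without S2A replicate 3 (-0.85), and one from S2A-S7A did not pass (-0.57 ± 0.32, edgeR adjusted p = 0.13). The Y1F libraries lay below all 3 S2A-S7A libraries, and in a fit of only those 6 libraries the gene was lower in Y1F (-0.57, edgeR adjusted p = 0.00067). The heme transporter gene shu1 did separate them, with 0.0449, 0.112 and 0.086 CPM in Y1F, 1.63, 1.07 and 0.263 in S2A, 17.9, 15.9 and 13.6 in S2A-S7A and 0.437, 0.236 and 0.266 in WT29 (Y1F over S2A -3.44, over S2A-S7A -7.42). Across the 9-gene run at the right end of chromosome I, the summed level was 6.53, 3.1 and 34 CPM in S2A and 185, 173 and 109 CPM in S2A-S7A, against the 1.12 to 2.1 CPM of Y1F. The run was delimited by its calls in Y1F against WT29, so the low sum of Y1F follows from that choice. The sum was low in S2A as well, where replicate 3 stood apart. In S2A-S7A the sum came mostly from gdt1, which averaged 119 CPM in S2A-S7A and 64.5 CPM in WT29, whereas SPAC750.01 averaged 19.2 CPM in S2A-S7A and 101 CPM in WT29. The RNA prl61 (4.8 and 28.6 CPM) and ftm4 (0.243 and 4.09 CPM) likewise had lower means in S2A-S7A than in WT29, with no test of that difference. For gdt1, Y1F was lower than S2A (-5.45 ± 0.93, or -3.74 without S2A replicate 3) and S2A-S7A (-8.59 ± 0.88), whereas SPAC750.01 did not pass against S2A (0.91 ± 0.87, edgeR adjusted p = 0.42). The helicase gene tlh2 had 409, 319 and 224 counts in S2A, and Y1F over S2A was -5.03. Of 583 antisense RNAs, 62 were higher and 282 lower in Y1F than in S2A, where the background was 18.8% and 23.6%. Compared with S2A-S7A, 109 were higher and 225 lower, where it was 33% and 26.2%. All of these contrasts share the Y1F libraries.

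**Figure D5:**
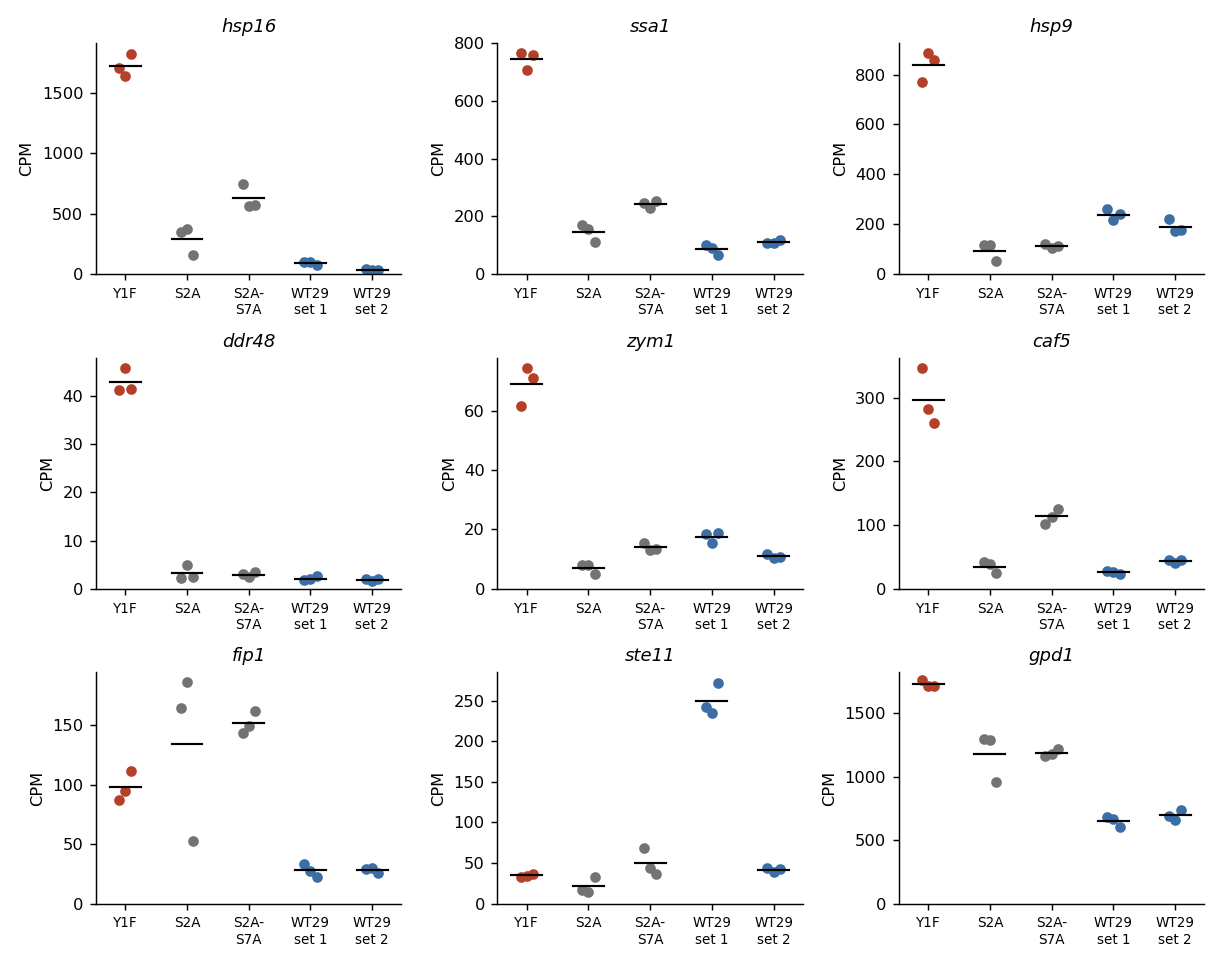
Levels in CPM on the 15-library scale of 9 genes in Y1F, S2A, S2A-S7A and both WT29 sets; each point is 1 library, each bar a group mean, and every axis starts at 0. The Y1F libraries of hsp16 lie at 1640 to 1823 CPM, above those of every other group, while fip1 is above both WT29 sets in all 3 mutants.

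In the authors' deposited table of Y1F over its control, made with DESeq2, 282 genes were called higher and 295 lower by the same thresholds. Called in the authors' deposited table and in the edgeR fit were 277 higher and 295 lower genes, with 0 in opposite directions, and the log2 fold changes differed by a median of 0.02.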

How the data were processed

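Polyadenylated RNA of 15 libraries was used: 3 each of Y1F, S2A, S2A-S7A and WT29, and 3 of WT29 control set 2. The authors deposited whole-number counts per gene, made with HISAT2 2.1.0, SAMtools and HTSeq 0.10.0 on assembly ASM294v2, per the submitters' processing notes, which do not give the strand setting. Their deposited table of Y1F over control holds a log2 fold change and an adjusted p-value by DESeq2. It also holds a signal, group means of counts divided by size factors, which the authors deposited and which was not needed here. Control set 2 has 1 sample record and 3 count columns, given to it because no other label holds their numbers. Those 3 columns differed from each other by more than sampling noise (chi-square per degree of freedom 19.83 to 23.92) and were counted as 3 libraries. The other 16 count columns were not used. Of 6986 gene IDs, 6833 matched the RefSeq annotation of ASM294v3, which gave names, classes, order and promoter windows (250 bases before the transcript start).

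Each comparison was fitted with edgeR 4.0.16 under R 4.3.3 (TMM scaling, filterByExpr, quasi-likelihood F test), with Benjamini-Hochberg adjustment over all genes tested. Comparisons of Y1F with WT29 used those 6 libraries, and direct contrasts with S2A or S2A-S7A used these and the WT29 libraries of the same set. The fit was tested on simulated data. Alternatives were the size factors and the Wald test of DESeq2 1.42.0, no filter on low counts, no minimum fold, all 4 groups in 1 fit, control set 2 alone or with set 1, each library left out, and replicate number as a block. Control set 2 summed as 1 sample was added after seeing the data. The members and gene lists were chosen with earlier results of these data known. Named genes were the 12 coding genes and 4 non-coding RNAs with the greatest change each way among called genes whose mean log2 CPM was 2 or more and whose strains did not overlap, rpb1, the 4 members of each list with the greatest change, and the neighbours of the 2 genes with the greatest falls. The text gives a choice of these. Further list members, genes of chromosome ends and snoRNAs were picked after their values were seen. At a median of 23.1 M counts, genes with few counts are the least precise, and standard errors cover counting and replicate error together.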

Additional observations from a re-analysis of the deposited data

How the results depend on the processing

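The counts of Y1F against WT29 were 281 higher and 307 lower genes as reported. They were 435 higher with control set 2 alone, 434 with control set 2 summed as 1 sample (an alternative chosen after seeing the data, in which the lone sample is assumed to vary like Y1F), and 1416 and 1656 with no minimum fold. Against S2A the counts with no minimum fold were 1142 and 1439, and against S2A-S7A 2007 and 1594. Leaving out 1 library at a time gave 276 to 302 higher and 279 to 341 lower genes against WT29, 221 to 287 and 314 to 386 against S2A, and 404 to 822 and 237 to 266 against S2A-S7A, where 404 was the count without S2A-S7A replicate 1. Without it, the share of higher genes among the called was 61.8%, against 71.9%. Replicate numbers did not pair the libraries: residuals of same-numbered Y1F and WT29 libraries correlated at 0.198, -0.186 and -0.256. With the replicate block the counts were 283 and 305 against WT29, 257 and 349 against S2A, and 691 and 255 against S2A-S7A. The 38 reversed values of named genes came from control set 2, and the cause was not tested. With set 2 alone, log2 fold changes were 0.25 for sks2, 0.67 for ssc1, 0.18 for uge1, 1.13 for gst3, 0.43 for frp1, -0.71 for str2, 0.18 for rps001, 0.15 for rpl1602, 0.78 for mei2, 0.11 for spk1, 0.39 for map1, 2.94 for cmt2, 3.27 for SPCC737.04, 1.10 for SPBC19C7.04c, 1.03 for cbp6-antisense-1, 0.33 for snoU14 and 0.50 for cns1. With set 2 summed they were 0.25, 0.68, 0.19, 1.13, 0.46, -0.71, 0.18, 0.16, 0.79, 0.12, 0.38, 2.96, 3.28, 1.11, 1.03, 0.34 and 0.48 in that order, and 0.00 for pmd1. With both sets together they were 0.11 for ssc1, 0.32 for gst3 and -0.27 for str2. Of the other values of named genes, 1725 kept their side of the threshold, 61 no longer passed and 23 newly passed. A change of sign was counted as reversed only where the gene passed in either fit, so the 1725 can hold sign changes that passed in neither. Low counts limit the end genes, the snoRNAs and the antisense RNAs most, and the limits of single values stand beside them in the results.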
